A study of Drosophila melanogaster with 24 samples.

Results

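The genes described here are 8 genes of antioxidant defence and its control, listed by name: cnc, Keap1, Gclc, Gclm, ref(2)P, Sod1, Sod2 and Cat. A probe set was used only where the platform annotation assigns it to 1 gene. By that rule 7 of the 8 genes, among 11982 genes named this way, had 8 of the 18769 probe sets tested, cnc having 2 and each of the others 1. Sod1, the cytosolic copper-zinc superoxide dismutase, had no probe set named for it here and was not analysed.

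Transcript levels came from whole adult Drosophila melanogaster of 0 to 3 days of age, measured on 24 Affymetrix arrays in 8 groups of 3. Over-expression flies carried an Hr96 transgene (line 35) driven by Act5C-GAL4, and their control carried Act5C-GAL4 alone. Flies labelled knockdown carried an Hr96 RNA interference transgene (line 3) driven by arm-GAL4, and their control carried arm-GAL4 alone. All 4 genotypes were in a w mutant background and each was measured in females and in males. Hr96 encodes the nuclear receptor DHR96, and the actin 5C and armadillo promoters that drive GAL4 are active in most tissues. Each manipulation rests on 1 transgenic line, and RNA was from whole bodies, so the tissue in which a transcript changed is not recorded. The 3 replicates of a group were reared on 3 batches of the same diet, which also pair the groups.

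In the fly, as in vertebrates with Nrf2, the transcription factor Cnc is held low by Keap1, an adaptor that sends it for degradation. When oxidants or foreign compounds act on Keap1, the long isoform CncC accumulates and switches on genes of glutathione synthesis and detoxification. Gclc and Gclm are the catalytic and the modifier subunit of glutamate-cysteine ligase, the rate-limiting enzyme of glutathione synthesis. Sod2 and Cat are enzymes that remove superoxide in mitochondria and hydrogen peroxide. Ref(2)P, the fly counterpart of p62, is a receptor that carries ubiquitinated proteins to autophagy, and the same pathway can activate its gene.

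Array medians lay between 52.9 and 65.5 intensity units, and the lower quartile of an array was at a log2 intensity of 4.35 to 4.62. Hr96 itself averaged 9.15 ± 0.43 in over-expression females, against 7.75 ± 0.28 in their control, and 8.76 ± 1.00 in over-expression males, against 6.67 ± 0.18 in theirs (log2 intensity, SD, n = 3 each). In flies labelled knockdown it averaged 7.98 ± 0.15 in females, against 7.81 ± 0.21 in their control, and 6.50 ± 0.09 in males, against 6.64 ± 0.28, so these flies are called by their label only. Yp1, a yolk protein gene, was at 12.50 or more in every female array and 6.33 or less in every male array, as the sex labels state.

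The regulators were read first. The probe set 1633379_s_at of cnc was well expressed, with group means between 9.35 and 9.81 on the log2 intensity scale. It lay above at least 91.0% of probe sets in every group. The other cnc probe set, 1636746_at, had group means between 2.99 and 3.15, under the lower quartile on each array, where a difference cannot be read, and cnc below refers to the first. The array does not tell which cnc isoform was measured. Keap1 had group means of 6.11 to 6.88. Among the effectors, Gclc had group means of 9.01 to 9.84, ref(2)P 9.89 to 10.80, Sod2 10.45 to 10.95 and Cat 10.38 to 11.28. Gclm had 6.59 to 7.55. Apart from the rank of the cnc probe sets, levels of different probe sets are not compared with each other, since probes differ in their binding.

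**Figure D1:**
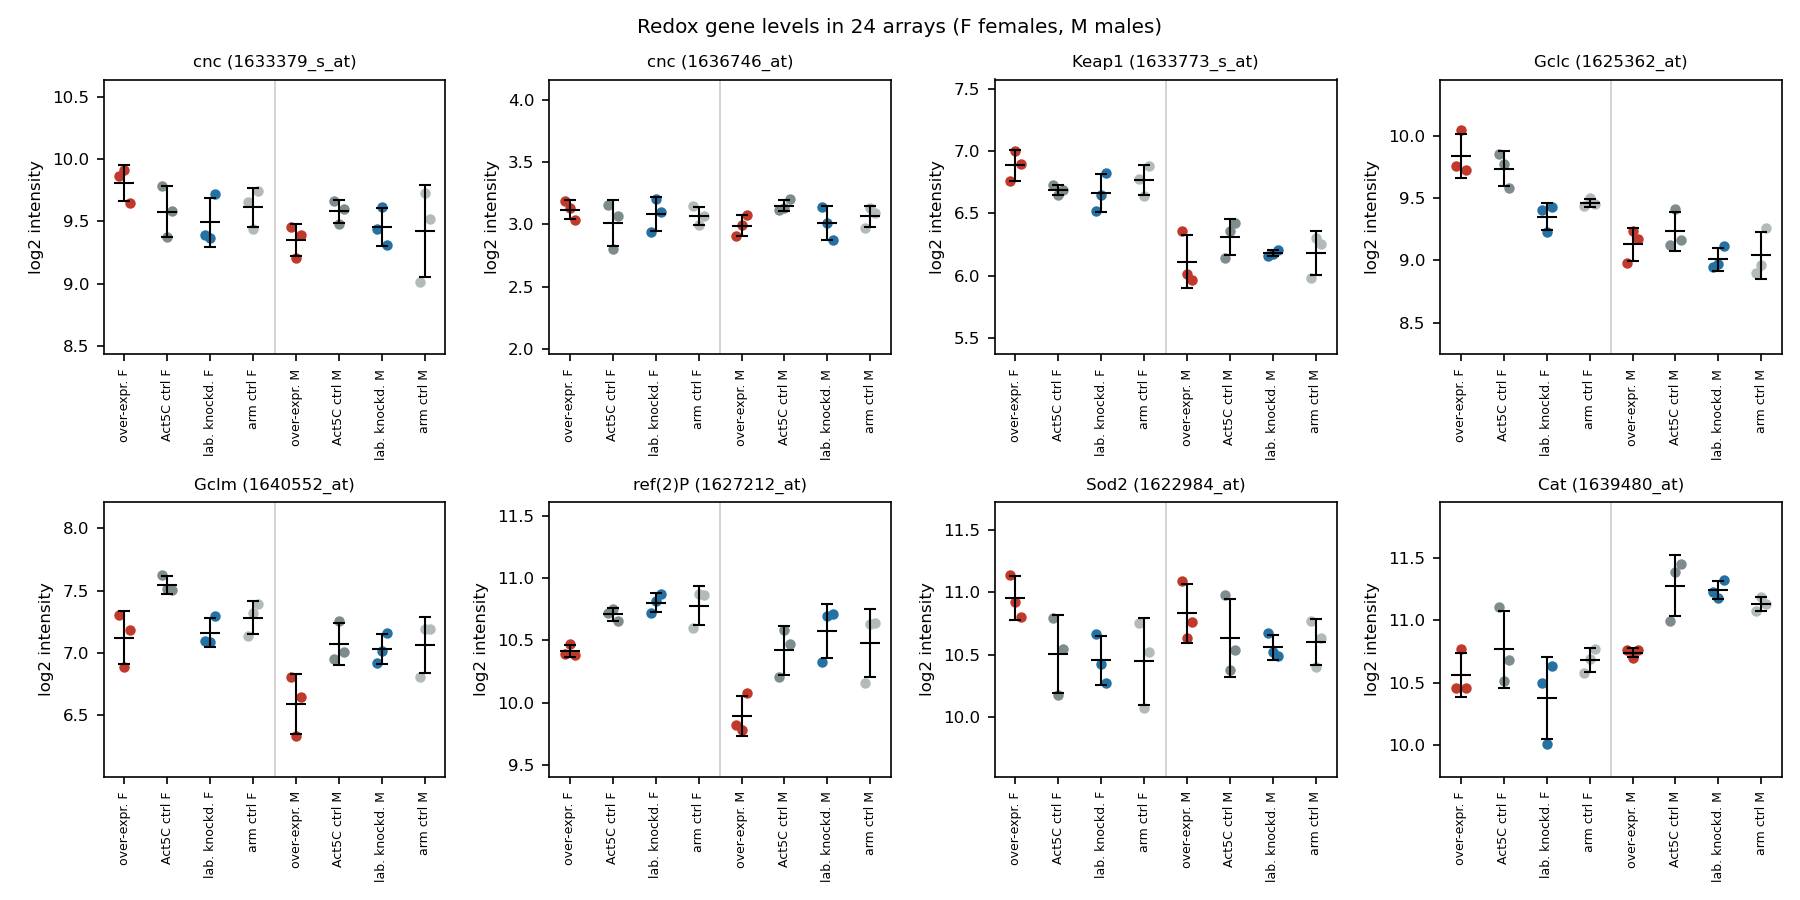
Log2 intensity of each probe set (y axis, each panel spanning the same width) in the 8 groups (x axis; F females, M males), with points for single arrays and black bars for the mean ± SD of 3 arrays. Gclm and ref(2)P lie lower with over-expression (red) than in the Act5C-GAL4 control in both sexes. The panel of 1636746_at, centred like the others on its own mean, is flat at values near background.

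With Hr96 over-expression, Gclm and ref(2)P were lower than in the Act5C-GAL4 control. Over both sexes Gclm fell 1.37-fold and ref(2)P fell 1.33-fold, while cnc, Keap1 and Gclc had mean differences near 0. With the sexes averaged, limma called 2 of the 8 probe sets, both lower, against 1.88% of all probe sets called and 0.948% called lower. Sod2 was higher and Cat lower without passing that test. The median difference of the 8 probe sets was -0.01 on the log2 scale, against 0.00 over all probe sets.

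Gclm read 7.30, 6.89 and 7.18 in over-expression females, against 7.63, 7.51 and 7.50 in Act5C-GAL4 control females (log2 intensity of replicates 1 to 3). In males it read 6.81, 6.33 and 6.65 with over-expression, against 6.95, 7.26 and 7.01 in the control. Every over-expression array was below every control array of its sex. How many of all probe sets separate in this way, or differ alike in all pairs, was not counted, here or for the genes below. The log2 difference was -0.45 in the mean of both sexes (SE 0.10, limma adjusted p = 0.0188, 6 arrays per genotype), and 6 of 6 pairs sharing a diet batch were lower. Within females it was -0.42 (SE 0.14, adjusted p = 0.167) and within males -0.48 (SE 0.14, adjusted p = 0.127), so neither sex passed alone. By batch the female differences were -0.32, -0.62 and -0.32, and the male ones -0.15, -0.93 and -0.36. Batch 2 thus gave the largest difference in both sexes. Gclm missed the threshold when replicate 2 of the over-expression females (adjusted p = 0.0670), of the over-expression males (0.0518) or of the control males (0.0620) was left out, and in a fit on the compared arrays alone (0.0776). Over-expression males replicate 2 had the lowest Gclm of all arrays. Hr96 ranged from 7.61 to 9.39 over the over-expression males, and whether Gclm follows the Hr96 level was not tested.

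Ref(2)P read 10.39, 10.47 and 10.39 in over-expression females, against 10.72, 10.75 and 10.65 in control females. In males ref(2)P read 9.82, 9.78 and 10.08 with over-expression, against 10.21, 10.58 and 10.47 in the control. Here too the groups did not overlap in either sex, again without a count over all probe sets. The log2 difference was -0.41 in the mean of both sexes (SE 0.10, limma adjusted p = 0.0315), -0.29 in females (SE 0.14, adjusted p = 0.304) and -0.53 in males (SE 0.14, adjusted p = 0.0701). Ref(2)P was lower in 6 of 6 pairs sharing a diet batch. With diet batch as a block the male difference also passed (adjusted p = 0.0165), in a fit whose share of calls over all probe sets was not counted. Averaged over the sexes, the ref(2)P call depended on single arrays. It held when replicate 3 of either over-expression group or replicate 1 of the control males was left out, and each of the other 9 compared arrays ended it when left out (adjusted p = 0.0505 to 0.0924), as did fitting the compared arrays alone (0.0517). The difference in effect between the sexes was 0.24 (SE 0.20, adjusted p = 0.557).

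Gclc, the partner of Gclm in the same enzyme, was not called. Gclc read 9.75, 10.04 and 9.72 in over-expression females, against 9.85, 9.77 and 9.58 in control females. In males it read 8.98, 9.23 and 9.17 with over-expression, against 9.12, 9.41 and 9.16 in the control. These ranges overlapped in both sexes, and the log2 difference in the mean of both sexes was 0.00 (95% interval -0.18 to 0.18, limma adjusted p = 0.998). The change of Gclm relative to Gclc within an array was tested directly, a test chosen after the values were seen. The p-value is not corrected for that choice, and the test did not use the pairing by diet batch. Since the Gclc difference was 0.00, the ratio largely repeats the Gclm difference from the same arrays and is not separate support for it. This log ratio was 0.45 lower with over-expression in the mean of both sexes, by 0.53 in females and 0.37 in males. A two-sided exact permutation test within each sex gave p = 0.005 (6 arrays per genotype), the smallest p that the 400 regroupings allow. In males the groups were barely apart, with over-expression replicate 1 at -2.175 and control replicate 1 at -2.171.

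Cnc and Keap1 showed no difference that passed in either sex. The arrays measure transcripts, not the Cnc protein that Keap1 sends for degradation. Cnc averaged 9.81 ± 0.14 in over-expression females, against 9.58 ± 0.21 in control females, and 9.35 ± 0.13 in over-expression males, against 9.58 ± 0.09 in control males (SD, n = 3 each). Its log2 difference was 0.23 in females and -0.23 in males (SE 0.16 in both), and 0.00 in their mean (95% interval -0.23 to 0.23). Keap1 averaged 6.88 ± 0.12 in over-expression females, against 6.69 ± 0.04 in control females, and 6.11 ± 0.22 in over-expression males, against 6.31 ± 0.15 in control males. Its log2 differences of 0.20 in females and -0.19 in males (SE 0.12 in both) also ran opposite ways. For Keap1 the difference in effect between the sexes was 0.39 (SE 0.18, unadjusted p = 0.0362, limma adjusted p = 0.324), and 0 of 8 probe sets passed in that comparison, where 0.165% of all probe sets were called. Keap1 was the only one of the 8 with an unadjusted p under 0.05 there, as 14.5% of all probe sets had.

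Sod2 read 11.14, 10.92 and 10.80 in over-expression females, against 10.79, 10.17 and 10.54 in control females. In males Sod2 read 11.09, 10.63 and 10.76 with over-expression, against 10.98, 10.37 and 10.54 in the control. The female groups touched without overlapping and the male groups overlapped. The log2 difference was 0.32 in the mean of both sexes (SE 0.13, limma adjusted p = 0.265), with 6 of 6 pairs higher. With diet batch as a block the SE was 0.09 and the adjusted p 0.0398, again without a count of calls over all probe sets.

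Cat did not pass in either sex. It read 10.76, 10.70 and 10.76 in over-expression males, against 11.00, 11.38 and 11.45 in control males, with no overlap. In females Cat read 10.46, 10.77 and 10.46 with over-expression, against 11.11, 10.51 and 10.68 in the control, where the ranges overlapped. The log2 difference was -0.54 in males (SE 0.16, limma adjusted p = 0.125), -0.21 in females (SE 0.16, adjusted p = 0.546) and -0.37 in the mean of both sexes (SE 0.11, adjusted p = 0.100). It passed without control males replicate 1 (-0.44, adjusted p = 0.0410). With array weights it passed in males (-0.58, adjusted p = 0.0197) and in the mean (-0.41, adjusted p = 0.0275). The difference between the sexes was not called (0.33, SE 0.23, adjusted p = 0.477).

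By sex, 0 of the 8 probe sets passed limma in over-expression females, where 0.874% of all probe sets were called, and 0 in over-expression males, where 1.17% were called. Unadjusted p-values under 0.05 numbered 3 in females (Gclm, ref(2)P and Sod2) and 3 in males (Gclm, ref(2)P and Cat), where 16.4% of all probe sets in females and 12.8% in males had one. In bulk RNA of whole flies, fewer cells of a type and less RNA per cell cannot be told apart. The summed intensity of 8 muscle genes ranged from 46218 to 60736 in over-expression females, against 23282 to 41539 in control females, and from 46013 to 58698 in over-expression males, against 35444 to 61823 in control males. Their median log2 difference was 0.78 in females and 0.20 in males, with 100% of the genes higher in both. For 10 ovary germline genes the summed intensity ranged from 5687 to 8788 in over-expression females, against 8611 to 13425 in control females. For 11 follicle, chorion and yolk genes it ranged from 26787 to 78105 in over-expression females, against 53667 to 90442 in control females, with a median log2 difference of -1.05. For 9 neuron genes it ranged from 1412 to 2344, against 1057 to 1723, with a median of 0.49 and 9 of 9 higher. In males the neuron genes ranged from 1422 to 2289 with over-expression, against 1644 to 2267 in the control, with a median of -0.06. For 12 testis genes it ranged from 36535 to 41789 in over-expression males, against 26498 to 31398 in control males. Of these muscle, ovary, follicle, neuron and testis genes 0 passed limma, and their part in the differences of the redox genes was not tested. Such lists also differed between the control genotypes, Act5C-GAL4 minus arm-GAL4. Their median log2 difference there was 0.60 in females and 0.42 in males for muscle, and -0.24 in males for testis. In females it was 0.45 for follicle, chorion and yolk genes, 0.02 for ovary germline and 0.15 for neuron genes, which had 0.05 in males. The fat body list gave 14742 to 18367 in over-expression females, against 14931 to 18145 in control females, and 4351 to 6499 in over-expression males, against 6102 to 8801 in control males. Its median log2 difference was 0.98 in females and 0.12 in males, which the sums do not show. In the mean of both sexes 2 of its 6 genes, Fbp1 and Fbp2, rose. Of 9 gut digestion genes 1 rose in that mean, and the median of their list was 0.03. The share of all probe sets called in that mean was 1.88%.

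**Figure D2:**
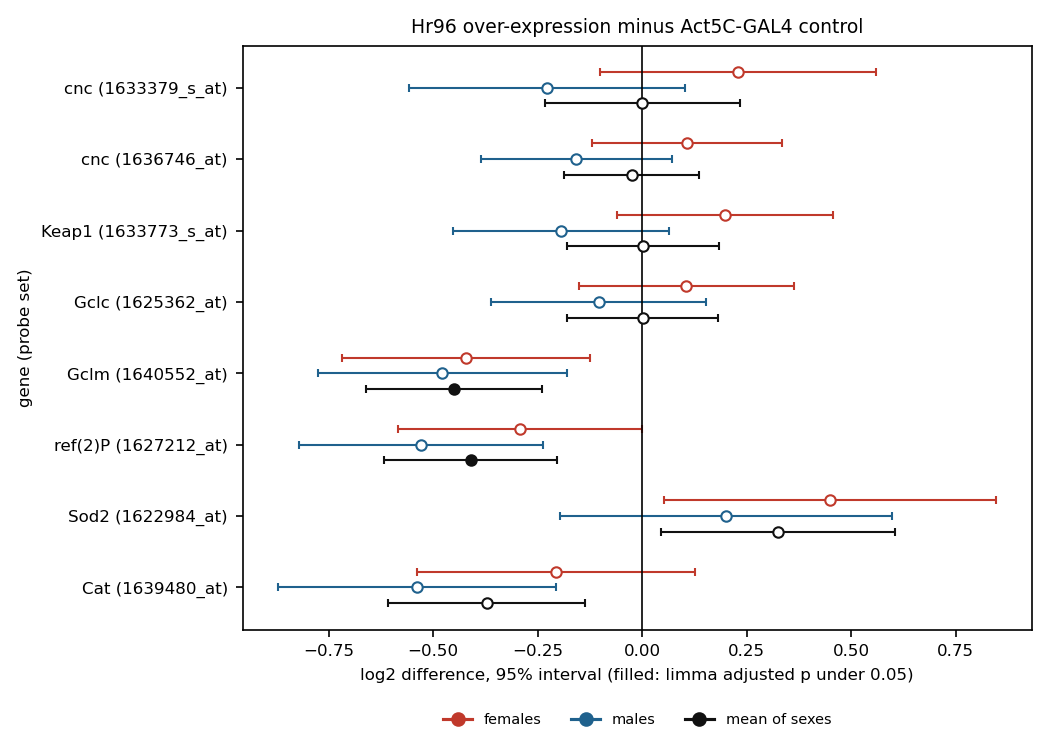
Log2 difference of Hr96 over-expression minus Act5C-GAL4 control (x axis) for each probe set (y axis) in females, in males and in their mean, with 95% intervals from limma. Filled points passed at an adjusted p under 0.05: the mean of both sexes for Gclm (-0.45) and ref(2)P (-0.41).

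Other genes around these members were described by list. Of these, 10 measured genes have been reported to answer to Cnc in flies, and they include 4 of the members. In the mean of both sexes 0 of the 10 rose and 2 fell, namely Gclm and ref(2)P. Both calls are the member calls given above, in a comparison where 1.88% of all probe sets were called. The median log2 difference of these 10 was -0.25, against -0.02 over all genes. By sex 0 of the 10 were called. In females the list's median was -0.02, against -0.04 over all genes, and in males -0.35, against -0.01 over all genes. Whether the list differed between the sexes was not tested. The largest male differences outside the members were those of the cytochrome P450 genes Cyp6a2 (-0.93, SE 0.37, limma adjusted p = 0.285) and Cyp6a8 (-0.62, SE 0.16, adjusted p = 0.0583). With diet batch as a block both passed in males, Cyp6a2 with an adjusted p of 0.0388 and Cyp6a8 with 0.0411. The share of all probe sets called with that block was not counted. In females Cyp6a2 differed by 0.37 (SE 0.37, adjusted p = 0.663) and Cyp6a8 by 0.07 (SE 0.16, adjusted p = 0.871). GstD1, the glutathione S-transferase often used as a reporter of Cnc activity, differed by -0.30 in males (SE 0.19, adjusted p = 0.510) and -0.16 in females (SE 0.19, adjusted p = 0.723).

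Of 14 genes of glutathione synthesis and use, GstS1 rose and Gclm fell in the mean of both sexes, and the other 12 did not pass. Over all probe sets 1.88% were called in that mean and 0.874% in females. In females 2 of the 14 rose: se, an omega-class transferase known for its part in eye pigment synthesis (log2 difference 1.45, SE 0.29, limma adjusted p = 0.0159), and GstS1 (1.23, SE 0.28, adjusted p = 0.0410). Of 21 autophagy genes, ref(2)P and Atg7, the enzyme that activates the ubiquitin-like proteins of autophagy, fell in the mean of both sexes, Atg7 by 0.37 (SE 0.09, adjusted p = 0.0264), and the median of the list was -0.01. In the same comparison 0 genes passed among 8 superoxide and hydrogen peroxide enzymes, 11 of the thioredoxin and peroxiredoxin list, 3 of NADPH supply, 8 of metal and iron handling and 8 stress kinases and sensors. The gene maf-S, for the small Maf partner of Cnc, and Cul3, the ubiquitin ligase scaffold that works with Keap1, did not pass either.

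The arrays labelled knockdown gave no call among these genes. Limma called 0 of the 8 probe sets in females, 0 in males and 0 in the mean of both sexes, against 0.0213%, 0.0266% and 0.0586% of all probe sets. Unadjusted p-values under 0.05 also numbered 0 in each, where 4.24%, 2.18% and 3.31% of all probe sets had one, so a count of 0 among 8 is near those shares. In the mean of both sexes the log2 differences ran from -0.10 (Cat) to 0.06 (ref(2)P), and the 95% intervals of the 8 probe sets together spanned -0.33 to 0.27. For Gclm the interval was -0.29 to 0.13. Gclm read 7.10, 7.09 and 7.30 in females labelled knockdown, against 7.14, 7.32 and 7.39 in arm-GAL4 control females, and 6.92, 7.02 and 7.16 in males labelled knockdown, against 6.81, 7.19 and 7.19 in control males. The ranges overlapped in both sexes. Ref(2)P read 10.72, 10.81 and 10.88 in females labelled knockdown, against 10.60, 10.87 and 10.86 in control females, and these too overlapped. The largest single difference was that of Cat in females, at 10.50, 10.01 and 10.63 in arrays labelled knockdown, against 10.58, 10.69 and 10.77 in the control (log2 difference -0.30, SE 0.16, limma adjusted p = 0.983).

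The control genotypes, which carry different GAL4 drivers and no Hr96 transgene, were also compared. Of the 8 probe sets 0 were called in females and 0 in males, against 0.170% and 0.730% of all probe sets. In females Gclc was higher in the Act5C-GAL4 control than in the arm-GAL4 control by 0.27 (SE 0.12, unadjusted p = 0.0400, limma adjusted p = 0.999), the one unadjusted p under 0.05. There were 0 in males, and over all probe sets 3.95% in females and 9.66% in males had one. Gclm differed by 0.26 in females (SE 0.14, adjusted p = 0.999) and 0.01 in males (SE 0.14, adjusted p = 0.996). The Act5C-GAL4 control arrays are shared with the over-expression comparison, so these values are not independent of those above. Gclm in over-expression females (7.12 ± 0.21) was below the arm-GAL4 control females (7.28 ± 0.13) by less than it was below its own control (7.55 ± 0.07; SD, n = 3 each). Ref(2)P in over-expression females, at 10.42 ± 0.05, was below both the Act5C-GAL4 (10.71 ± 0.05) and the arm-GAL4 control (10.78 ± 0.16).

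Among control flies of both genotypes, limma called 5 of the 8 probe sets between females and males, 4 higher in females and 1 lower, where 63.0% of all probe sets were called. A count of this size is near that share. Keap1 was higher in females by 0.48 (SE 0.09, limma adjusted p = 5.4e-05, 6 arrays per sex), Gclc by 0.46 (SE 0.09, adjusted p = 8.0e-05), Gclm by 0.35 (SE 0.10, adjusted p = 0.00527) and ref(2)P by 0.29 (SE 0.10, adjusted p = 0.0138) on the log2 scale. Cat was lower in females by 0.48 (SE 0.11, adjusted p = 8.8e-04). Cnc differed by 0.09 (SE 0.11, adjusted p = 0.467) and Sod2 by -0.14 (SE 0.13, adjusted p = 0.370).

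The median difference over all probe sets was 0.20 in the same direction. Shifting the arrays to a common median raised every female minus male difference by a further 0.20. With that shift cnc passed too (0.29, adjusted p = 0.0140), while Cat remained lower in females (-0.28, adjusted p = 0.0167). Sod2, uncalled on both scales, changed sign to 0.06 (adjusted p = 0.691). With array weights ref(2)P missed the threshold (0.21, adjusted p = 0.0509). The 10 ovary germline genes summed to 8124 to 13510 in arm-GAL4 control females, against 701 to 941 in arm-GAL4 control males, and the 12 testis genes to 389 to 411, against 29063 to 38802. The part of the gonads in these differences was not tested.

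The values by array show the same order. Keap1 read 6.73, 6.64 and 6.69 in Act5C-GAL4 control females, against 6.15, 6.36 and 6.42 in males of that genotype, and 6.78, 6.64 and 6.88 in arm-GAL4 control females, against 5.98, 6.31 and 6.26 in males. No female array was as low as any male array. Gclc likewise did not overlap between the sexes, at 9.44 to 9.85 in control females and 8.90 to 9.41 in control males. Cat read 11.11, 10.51 and 10.68 in Act5C-GAL4 control females, against 11.00, 11.38 and 11.45 in males, and 10.58, 10.69 and 10.77 in arm-GAL4 control females, against 11.07, 11.19 and 11.13 in males. Cat thus overlapped between the sexes only through 1 female array of the Act5C-GAL4 control. With over-expression the sexes were closer in Cat, at 10.56 ± 0.18 in females and 10.74 ± 0.04 in males (SD, n = 3 each).

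**Figure D3:**
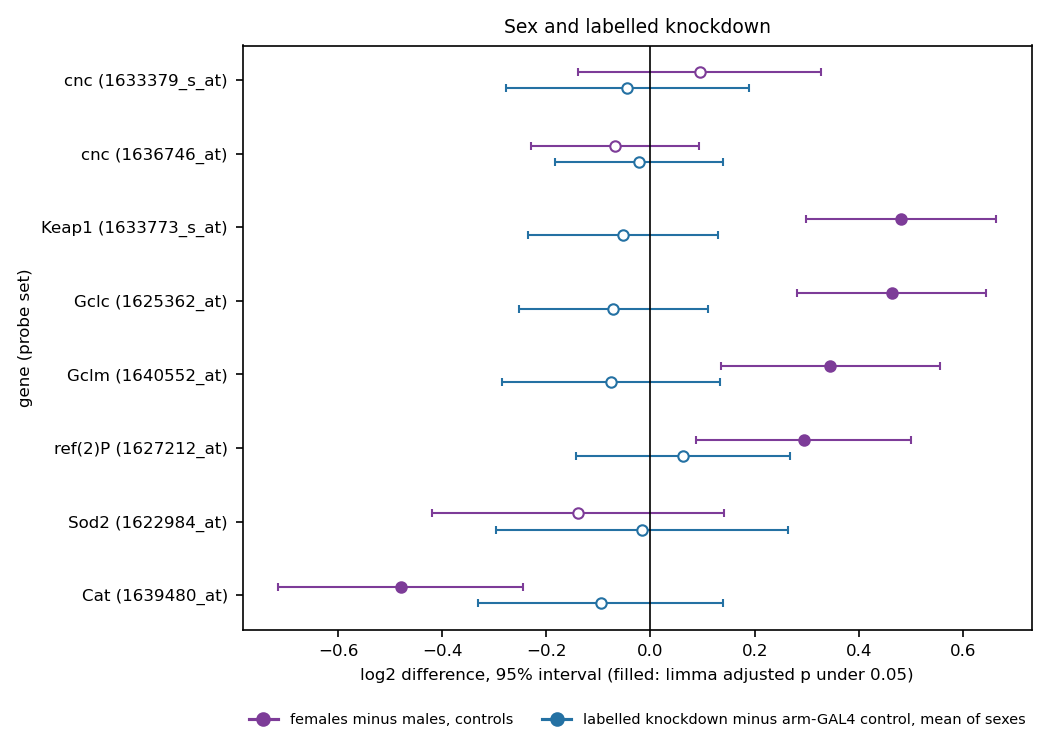
Log2 difference (x axis) of control females minus control males and of flies labelled knockdown minus arm-GAL4 control, with 95% intervals, for each probe set (y axis). Filled points passed limma at an adjusted p under 0.05: Keap1, Gclc, Gclm and ref(2)P are higher and Cat lower in females, and every interval for labelled knockdown includes 0.

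Ordered by group mean, cnc ran from 9.81 in over-expression females to 9.35 in over-expression males. No neighbours in the order of cnc were further apart than its pooled SD within groups of 0.20. In Keap1 the 4 female groups stood above the 4 male groups, and the step between them, 0.35, was the only one above the pooled SD of 0.14. Gclc also had all female groups above all male groups, but its largest step, 0.27, lay among the females, with both Act5C-GAL4 genotypes above both arm-GAL4 genotypes (pooled SD 0.14). In Gclm over-expression males stood alone at the bottom, 0.44 below the next group (pooled SD 0.17). In ref(2)P both over-expression groups were last, and over-expression males lay 0.52 below over-expression females, which was the only step above the pooled SD of 0.17. Sod2 had both over-expression groups at the top, at 10.95 and 10.83, with no step above its pooled SD of 0.25. Cat ran from 11.28 in Act5C-GAL4 control males to 10.38 in females labelled knockdown, and its one step above the pooled SD of 0.20 separated the 3 male groups without over-expression from all others, by 0.36.

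Diet batch moved Sod2 more than any other of these genes. A limma F test of the 3 batches over all 24 arrays called 1 of the 8 probe sets, Sod2 (adjusted p = 0.0108), against 2.02% of all probe sets. Sod2 was highest in batch 1 in 8 of 8 groups. Over the 8 arrays of a batch its lowest, median and highest log2 intensities were 10.66, 10.78 and 11.14 in batch 1, 10.07, 10.41 and 10.92 in batch 2 and 10.27, 10.54 and 10.80 in batch 3. Batch 2 was lower than batch 1 by 0.42 and batch 3 by 0.29 on the log2 scale, beside the 0.32 between over-expression and control. Ref(2)P was lowest in batch 1 in 5 of 8 groups, with batches 2 and 3 higher by 0.21 and 0.22 (adjusted p = 0.143). In the other 6 probe sets batches 2 and 3 differed from batch 1 by at most 0.09. The batches share a recipe, per the labels. Batch and replicate number are the same thing here, so diet and anything else that differed between replicates cannot be told apart.

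**Figure D4:**
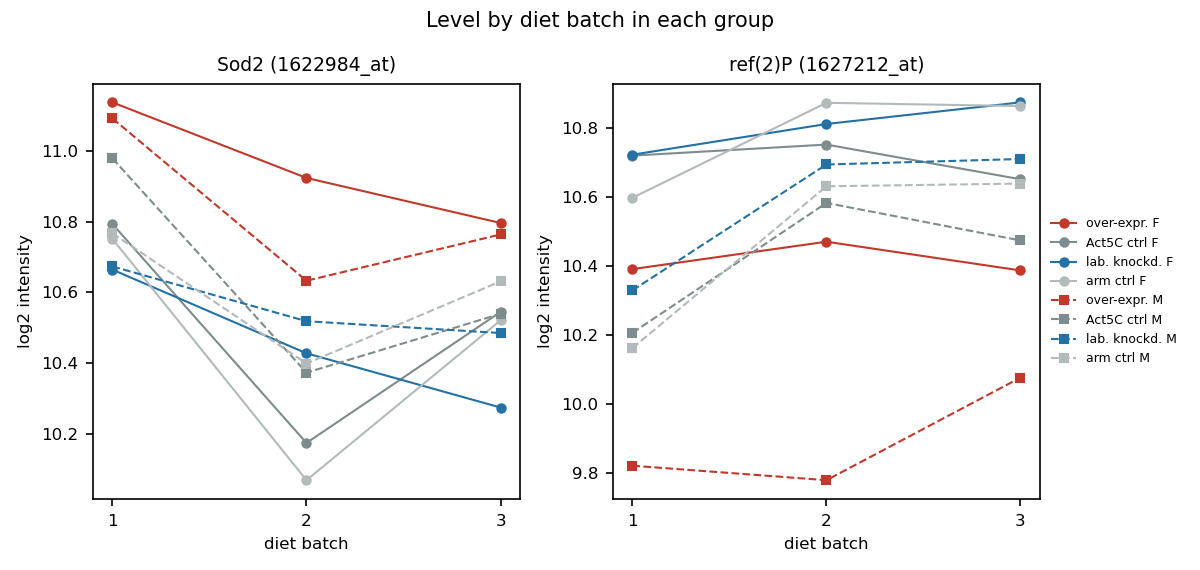
Log2 intensity (y axis) of Sod2 and ref(2)P in the 3 diet batches (x axis), with a line joining the 3 arrays of each group (circles females, squares males). Sod2 is highest in batch 1 in 8 of 8 groups, and over-expression males (red squares) are the lowest group in ref(2)P in each batch.

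The members did not vary as one block. With each sex centred on its own mean, Pearson correlations over the 24 arrays, which share diet batches and genotypes, were 0.70 for Gclm with ref(2)P, 0.69 for cnc with Keap1, 0.64 for Gclm with Cat and 0.54 for ref(2)P with Cat. Gclm and Gclc had 0.09. Sod2 ran against ref(2)P, at -0.69. Within a sex Gclm with ref(2)P gave 0.34 in females and 0.88 in males, while cnc with Keap1 gave 0.79 and 0.61. Gclm with Cat gave 0.46 in females and 0.81 in males, and ref(2)P with Cat 0.06 and 0.84. These values are descriptions of the arrays, and the over-expression and batch differences above enter into them.

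Over the same 24 sex-centred arrays and 11981 other genes, the genes most like ref(2)P were MSBP, which encodes a membrane steroid-binding protein (r = 0.92), and Jheh2, a juvenile hormone epoxide hydrolase gene (0.89). For Gclm they were GstE3, a glutathione S-transferase gene (0.88), and Gbs-70E (0.85). GstE3 was also the closest to Cat (0.82), followed by CG11168 (0.81). For Gclc they were CG5346 (0.88) and CG6602 (0.88). Sod2 had the closest matches, UQCR-6.4 and ATPsynB, which encode subunits of respiratory complex III and of ATP synthase (0.97 for both). For cnc they were HisT and the scavenger receptor gene crq (0.86 for both), and for Keap1 rau and Ugt49C1 (0.75 for both). The gene ranked 100th had r = 0.82 for Sod2 and 0.64 for Keap1, so many genes come close to those named.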

How the data were processed

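The authors deposited linear-scale intensities made with RMA, per the submitters' processing notes, which give no version here. They ran from 5.2 to 20754, and log2 was taken with no pseudocount. Of 18952 probe sets, 183 controls were left out; of the 18769 tested, 13647 name 1 gene, 402 several and 4720 are unnamed here. Groups followed the labels. No sequences or coordinates were used.

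Testing used limma 3.58.1 (R 4.3.3) on all 24 arrays, with 1 mean per group (16 residual degrees of freedom) and Benjamini-Hochberg adjustment over all probe sets at 0.05, two-sided. A probe set is called when it passes that threshold. The labels call the replicates biological; p-values weigh differences against the spread between these arrays, whose number limits the precision. Replicate numbers mark diet batches, so they pair the samples: deviations of the 12 same-batch pairs correlated at -0.07 to 0.57, and 9 were over 0.1. A fit with batch as a block was an alternative, as were the compared arrays alone, a common median, quantile normalization, a minimum mean log2 value of 5, eBayes with trend and robust, array weights, keeping 1 probe set per gene, and omitting single arrays. The limma steps were tested on simulated data.

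The rule for named genes takes each member probe set, up to 3 called genes per list, the 2 genes most like each member and Hr96, Yp1 and Acp26Aa as label checks (the last at 11.49 or more in every male array and 4.48 or less in every female array). Cyp6a2, Cyp6a8 and GstD1 were named after their values were seen. Where a gene had several probe sets, that with the highest mean came first. Members and lists were chosen with earlier results of these data known. Tables and plots used Python 3.11.15, numpy 2.4.6, pandas 2.3.3 and matplotlib 3.10.9.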

Additional observations from a re-analysis of the deposited data

Results flagged for a closer look

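One result stood out because every diet-batch pair of females moved against every pair of males. Keap1 and Gclc also differed in sign between the sexes, but not in every pair. How many of all probe sets meet this rule was not counted. In cnc, over-expression females were above the Act5C-GAL4 control in 3 of 3 pairs sharing a diet batch, and over-expression males were below it in 3 of 3. By batch the female differences were 0.09, 0.54 and 0.06, so batch 2 gave most of the female rise. The difference in effect, females minus males, was 0.456 on the log2 scale (SE 0.22). It did not pass limma (adjusted p = 0.351, unadjusted p = 0.0549). Leaving out single arrays gave 0.35 to 0.56, none of which passed.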

How the results depend on the processing

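Of 1292 values of a member in a comparison under an alternative, 1268 kept their direction and side of the threshold or were uncalled both times, 15 were no longer called, 9 were newly called and 0 were called with the opposite sign. For over-expression in the mean of both sexes, 2 probe sets were called; the count was 0 on the compared arrays alone and ranged from 0 to 3 over the 12 single arrays left out. It was 0 when replicate 2 of the over-expression females, the over-expression males or the control males was left out, and 3, with Cat, without control males replicate 1. For over-expression males the count was 1 with the replicate block of diet batch (ref(2)P), 3 with array weights (Gclm, ref(2)P and Cat) and 0 to 1 with single arrays left out. In the mean of both sexes the block added Sod2 (adjusted p = 0.0398). The block changed no other call of a member. The cause of these changes was not tested. A fit on the compared arrays alone also has fewer residual degrees of freedom. The counts for labelled knockdown, for the control genotypes and for sex did not move by over 1.5 times under any alternative run, and neither did the batch count under its 6. Probe sets near background, as 1636746_at of cnc, carry no information on change.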
